A study of Mus musculus with 34 samples.

Results

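The astrocyte connexins are the 3 genes Gja1, Gjb6 and Gjb2, which encode the gap junction proteins Cx43, Cx30 and Cx26. They were taken by gene name from the deposited expression table, as 3 of the 20613 genes with values and 3 of the 20 connexin genes in it. The study profiled polyadenylated RNA of astrocytes that were purified by magnetic separation from the cortex of male mice, all labelled WT and with no treatment named, to compare development with aging. Of the 34 libraries, 4 came from P7, 4 from P14, 3 from P21, 3 from P28 and 3 from P60 (postnatal days), and 5 came from 3m, 5 from 6m, 3 from 12m and 4 from 18m (months). Neither the strain nor the antigen used is given in the sources used here. Whether libraries of an age are separate animals is not stated either, so p-values measure the spread between these libraries, which may be technical. Expression is in TPM, the units in which each library sums to 1000000 transcripts, and which are scaled by transcript length, so that levels can be compared between genes. TPM keep no depth, and no counting interval can be given.

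Connexin subunits assemble into a ring in the membrane, and the rings of neighbouring cells dock into a gap junction channel. Astrocytes use these channels to form a network that spreads potassium, glutamine, glucose products and calcium signals from cell to cell. Cx43 is the main connexin of astrocytes from before birth, Cx30 is an astrocyte connexin that appears as the cortex matures, and Cx26 is known from the leptomeninges and from some astrocytes.

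Gja1 (ENSMUSG00000050953) lies on the plus strand of chromosome 10 at 56377330 to 56402513 in GRCm38 (mm10), by the GENCODE M21 annotation. Gjb6 (ENSMUSG00000040055) lies on the minus strand of chromosome 14 at 57123303 to 57133611, and Gjb2 (ENSMUSG00000046352) lies beside it on the same strand at 57098600 to 57104702. A gap of 18600 bases separates Gjb2 from Gjb6, with Gja3, a lens connexin, on the other side of Gjb2. The annotation gives Gja1 8 transcripts and Gjb6 4, of up to 3 exons each, and Gjb2 1 transcript of 2 exons. All 3 members matched the RefSeq promoter table of GRCm38.p6, which holds 250 bases before and 50 bases after each gene start. The promoters are shown because Gjb6 and Gjb2, though neighbours on one strand, had different courses over age. Capitals mark the AP-1 letters TGANTCA in Gja1 and the GC box letters GGGCGG in Gjb2. A GC box that lies on the opposite strand reads CCGCCC here.
Gja1 (chr10:56377050-56377349, plus strand): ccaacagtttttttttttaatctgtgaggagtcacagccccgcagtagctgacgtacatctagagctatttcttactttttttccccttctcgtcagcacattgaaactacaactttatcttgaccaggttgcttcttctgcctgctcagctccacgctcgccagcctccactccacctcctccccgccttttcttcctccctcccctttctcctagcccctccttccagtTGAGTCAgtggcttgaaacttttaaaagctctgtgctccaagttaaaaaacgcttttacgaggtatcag
Gjb6 (chr14:57133562-57133861, minus strand): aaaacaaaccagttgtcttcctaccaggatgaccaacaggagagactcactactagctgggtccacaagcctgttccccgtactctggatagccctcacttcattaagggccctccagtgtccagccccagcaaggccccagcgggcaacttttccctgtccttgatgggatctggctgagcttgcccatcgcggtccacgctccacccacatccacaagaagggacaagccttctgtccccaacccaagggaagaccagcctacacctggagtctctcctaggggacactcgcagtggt
Gjb2 (chr14:57104653-57104952, minus strand): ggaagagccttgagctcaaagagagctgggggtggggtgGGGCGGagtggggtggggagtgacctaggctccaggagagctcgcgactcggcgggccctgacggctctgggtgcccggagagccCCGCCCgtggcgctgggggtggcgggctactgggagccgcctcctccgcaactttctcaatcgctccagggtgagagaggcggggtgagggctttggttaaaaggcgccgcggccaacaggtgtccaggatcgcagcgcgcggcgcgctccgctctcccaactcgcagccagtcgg

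The promoters differed in base composition. GC made up 47.7% of the 300 bases of Gja1, 57.3% of Gjb6 and 70% of Gjb2, beside a median of 53% over the 32544 promoters of the table. Both strands were searched for 5 motifs. The AP-1 letters were found once, in Gja1, with their start at -19 relative to the RefSeq gene start, which for Gja1 lies before the GENCODE start given above; 7.79% of all promoters of that length hold them. The GC box letters were found 2 times, in Gjb2, at -211 and -126; 35.9% of all promoters hold them. None of the 3 promoters held a TATA box (TATAAA, in 13.6% of promoters), a CCAAT box (CCAAT, in 37.4%) or an E-box (CACGTG, in 7.17%), and Gjb6 held none of the 5 motifs in this window.

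The 3 genes lay at different levels. Over the 34 libraries Gja1 averaged 2266 TPM and ranked 42 of all genes by mean TPM, Gjb6 averaged 1155 TPM and ranked 85, and Gjb2 averaged 37.2 TPM and ranked 3987. Together they made up 91.6% to 98.9% of the summed TPM of the 20 connexin genes in every library. Gjb6 varied most, by 5.44-fold between its highest and lowest library, against 3.12-fold for Gja1 and 2.64-fold for Gjb2. A limma F test over the 9 ages called all 3 (adjusted p = 5.39e-05 for Gja1, 3.45e-05 for Gjb6 and 0.0252 for Gjb2), beside 63.6% of the 14590 genes tested, and Gjb2 lost this call after rescaling by medians of ratios (adjusted p = 0.0513). Each comparison below comes from one limma fit of log2(TPM + 1) with a mean per age, and a gene is called at a Benjamini-Hochberg adjusted p under 0.05 over all genes tested.

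The labelled cell type was checked with marker lists. The 15 mature astrocyte markers summed to 10888 to 28252 TPM per library, and 0 of them were at 0 throughout any age. Summed TPM of 12 neuronal markers ran between 56.1 and 659, of 10 oligodendrocyte markers between 191 and 2523, of 10 microglial markers between 76.0 and 229 and of 10 leptomeningeal fibroblast markers between 152 and 1174. Endothelial (10 genes), mural (8), ependymal (8) and oligodendrocyte precursor (6) markers summed to 411 to 4201, 1302 to 5039, 397 to 3432 and 129.5 to 437 TPM. The 5 erythroid genes, from blood, summed to 439 to 67751 TPM and were highest at P21, with 36268 to 67751 TPM in its 3 libraries. Libraries also stood apart in the number of genes listed at 0. All libraries of P7, P14 and 18m and replicates 1 and 2 of 12m had 4109 to 4819 such genes, those of P21, P28 and P60 had 2854 to 3523, and those of 3m and 6m and replicate 3 of 12m had 1155 to 1704. Of the comparisons that follow, P14 vs P7, 18m vs P7 and 6m vs 3m each lie within one of these ranges, whereas in P60 vs P7, P21 vs P14, P60 vs P14, 3m vs P60, 18m vs P60 and 18m vs 3m the range moves with age. In 12m vs 6m and 18m vs 12m it moves for some of the 12m libraries. In such comparisons age and range cannot be told apart, apart from the link that the 12m libraries give. A covariate for the count of genes at 0 rests largely on that link, because the count varied little within the other ages.

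**Figure D1:**
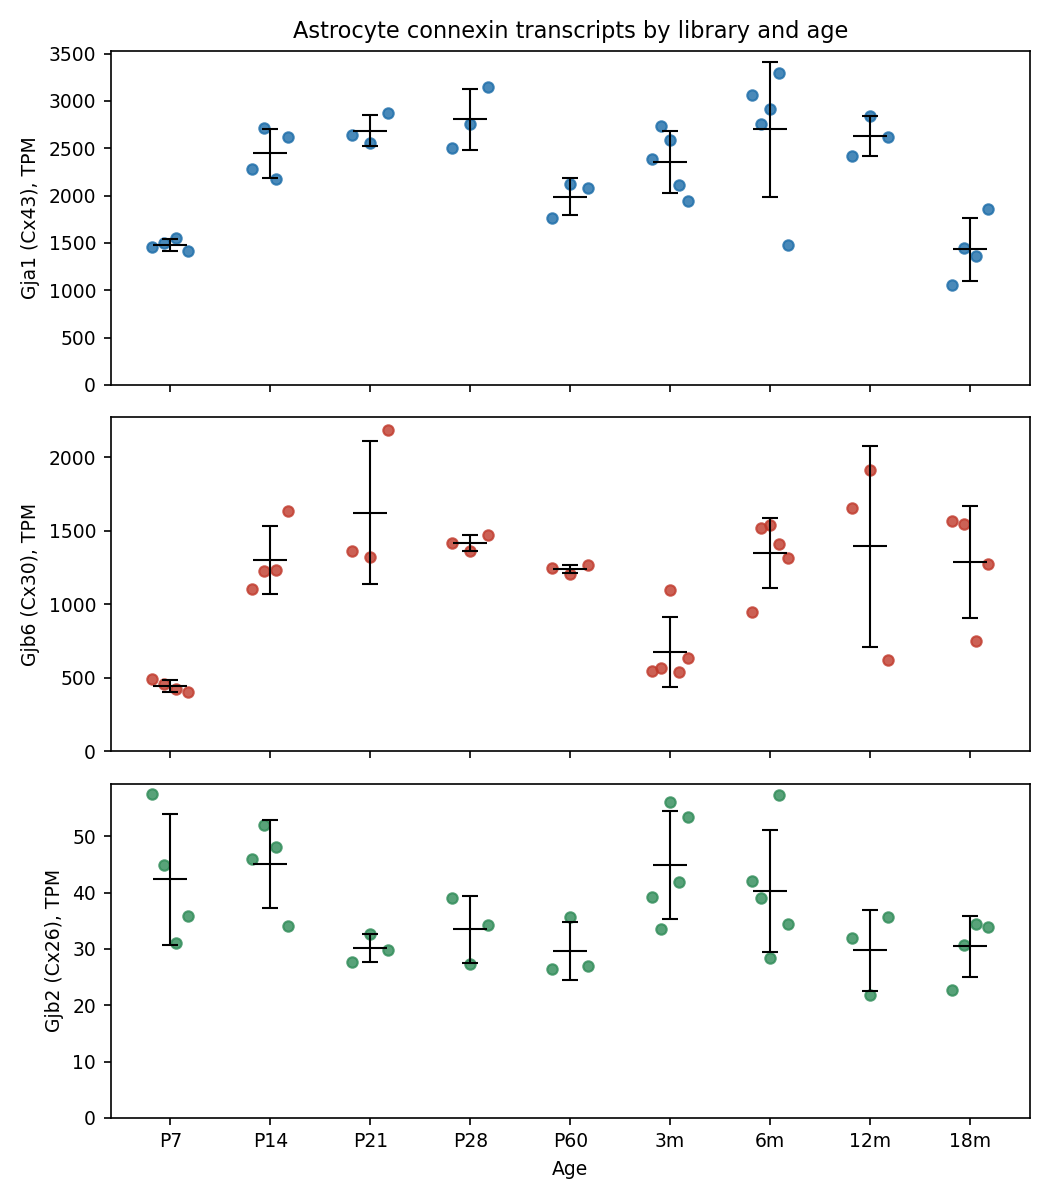
TPM of Gja1, Gjb6 and Gjb2 (one panel each, linear axes from 0) in every library, by age. Points are libraries, and black bars are the mean with SD (n = 3 to 5). Gja1 is lowest at P7 and 18m, Gjb6 is lowest at P7 and 3m, and Gjb2 stays between 21.8 and 57.6 TPM.

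Gja1, the main astrocyte connexin, was low at P7, high from P14 to 12m and low again at 18m. Its TPM per library were 1457, 1499, 1549 and 1411 at P7. They were 2283, 2713, 2175 and 2619 at P14. In the next weeks they were 2639, 2557 and 2868 at P21 and 2506, 2760.1 and 3151 at P28. Every library of P14, P21 and P28 lay above every library of P7. At P60 the values were 1768, 2120.0 and 2079. At 3m they were 2386, 2735, 2589.7, 2114 and 1939. At 6m they were 3067, 2756, 2912, 3292 and 1477. Replicate 5 of 6m lay at the P7 level, apart from the other libraries of its age. The values were 2422, 2839 and 2621 at 12m and 1055, 1450.3, 1365 and 1856 at 18m. All 18m libraries lay below all 12m and 3m libraries, and they overlapped the P7 libraries.

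By mean TPM, from low to high, Gja1 ranked 18m (1432 ± 330), P7 (1479 ± 58.9), P60 (1989 ± 192), 3m (2353 ± 328), P14 (2448 ± 259), 12m (2628 ± 209), P21 (2688 ± 161), 6m (2701 ± 712) and P28 (2806 ± 325), with SD over 3 to 5 libraries. None of the 8 pairs of neighbours in this order was called by limma (lowest adjusted p = 0.0535, for P60 vs P7). Neighbours were picked by their means in these same data, here and for the other members below. Their differences are small by that choice, so a lack of calls carries little weight. Of all 36 age pairs 12 were called, 6 with the later age higher and 6 with it lower. Beside this, a median of 11.2% of genes was called per pair (0.0206% to 52.8%). That figure, here and for the other members, is a share of genes in a pair and not a share of pairs for a gene.

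The early step of Gja1 was P14 vs P7. Its mean was 2448 ± 259 TPM at P14 and 1479 ± 58.9 TPM at P7 (SD, n = 4 each), and it rose by a log2 fold change of 0.72 ± 0.17 (SE; limma adjusted p = 0.00969). In that comparison 11.8% of genes tested were called, 3.28% higher at P14. The mature astrocyte markers stood higher with it, at a mean log2(TPM + 1) of 8.95 at P14 and 8.52 at P7. With that list as a covariate the Gja1 difference was 0.29 ± 0.15 (limma adjusted p = 0.200).

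Gja1 was 1989 ± 192 TPM at P60 (SD, n = 3), against 1479 ± 58.9 TPM at P7 (SD, n = 4). The libraries did not overlap, but the log2 fold change of 0.42 ± 0.18 (SE) was not called (limma adjusted p = 0.0535). The median of all genes was -0.15 in this comparison, and after rescaling by medians of ratios, which puts it at 0.01, Gja1 was 0.60 ± 0.16 higher at P60 (limma adjusted p = 0.00349).

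The late step of Gja1 was between 12m and 18m. It was 1432 ± 330 TPM at 18m (SD, n = 4) and 2628 ± 209 TPM at 12m (SD, n = 3), and it fell by 0.90 ± 0.18 on the log2 scale (SE; limma adjusted p = 0.00345), beside 20.2% of genes called and 18.6% lower at 18m. The median of all genes was -0.21. The libraries did not overlap. Among the libraries with the most genes at 0 alone, which leave out replicate 3 of 12m, the fall was 0.90 as well (limma adjusted p = 0.00393). The mature astrocyte markers stood at a mean log2(TPM + 1) of 8.63 at 18m and 8.98 at 12m. Their summed TPM overlapped, with 18001 to 24031 at 18m and 17593 to 23402 at 12m. With the log2 mean of this list as a covariate the Gja1 difference was -0.54 ± 0.15 (limma adjusted p = 0.0579). In a fit of these ages alone the adjusted p of Gja1 was 0.0815.

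Against 3m, Gja1 was lower at 18m by the same test, with 1432 ± 330 TPM at 18m (SD, n = 4) and 2353 ± 328 TPM at 3m (SD, n = 5). The log2 fold change was -0.73 ± 0.16 (SE; limma adjusted p = 0.00107), beside 37.5% of genes called and 33.4% lower at 18m. The median of all genes was -0.24, and of the 15 mature astrocyte markers 2 were called higher and 7 lower. The summed TPM of these markers were 18001 to 24031 at 18m and 11673 to 19745 at 3m. With each library's count of genes at 0 as a covariate the difference was -0.60 ± 0.32 (limma adjusted p = 0.359). Against P7, the 18m level differed by -0.08 ± 0.17 on the log2 scale (limma adjusted p = 0.766), and it was 0.19 ± 0.15 higher after rescaling (limma adjusted p = 0.421). In bulk RNA such as this, fewer astrocytes in a sample and less Gja1 RNA per astrocyte cannot be told apart.

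Gjb6, the later astrocyte connexin, was lowest at P7, about 3 times as high from P14 to P60, low at 3m and high in most libraries from 6m onward. Its TPM per library were 495, 459.9, 422 and 401 at P7. They were 1105, 1229, 1235 and 1638 at P14. All P14 libraries lay above all P7 libraries. The values were 1361, 1325 and 2183 at P21, 1415, 1363 and 1469.6 at P28, and 1246, 1208 and 1267 at P60. Replicate 3 of P21 was the highest of all 34 libraries, and the P60 libraries lay close together. At 3m the values were 543, 569, 1100.0, 540.2 and 637. At 6m they were 951, 1519.7, 1542, 1413 and 1314. All 3m libraries lay below all P60 libraries, and replicate 3 of 3m was above replicate 1 of 6m. The values were 1652, 1913 and 619 at 12m and 1569, 1549, 754 and 1273 at 18m. Replicate 3 of 12m and replicate 3 of 18m were low for their ages. That 12m library is the one that shared the range of genes at 0 of the 3m and 6m libraries.

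By mean TPM Gjb6 ranked P7 (444 ± 41.4), 3m (678 ± 239), P60 (1240.2 ± 29.6), 18m (1286 ± 380), P14 (1302 ± 232), 6m (1348 ± 240), 12m (1395 ± 684), P28 (1416 ± 53.5) and P21 (1623 ± 486), with SD over 3 to 5 libraries. Only 1 of the 8 pairs of neighbours in that order was called by limma, 3m vs P60 (adjusted p = 0.0300). Of the 36 age pairs 13 were called, 9 with the later age higher and 4 with it lower, beside a median of 11.2% of genes called per pair.

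Gjb6 rose between P7 and P14 and kept that level to P60. It averaged 1302 ± 232 TPM at P14 and 444 ± 41.4 TPM at P7 (SD, n = 4 each), a ratio of 2.93, and the log2 fold change was 1.54 ± 0.27 (SE; limma adjusted p = 0.00111). P60 vs P7 gave 1.48 ± 0.29 (limma adjusted p = 0.000308), beside 52.8% of genes called and 19.5% higher at P60. None of the 3 connexins was called in P21 vs P14, P28 vs P21 or P60 vs P28, where 13.2%, 0.0206% and 1.12% of genes were called, or in 12m vs 6m, where 0.0548% were. Neuronal and oligodendrocyte markers were also higher at P60: 9 of 12 and 8 of 10 were called higher, and their summed TPM were 342 to 659 and 1324 to 2440 at P60, against 56.1 to 91.6 and 244 to 391 at P7. The oligodendrocyte marker Mobp was at 0 in all P7 libraries. Of ependymal markers 8 of 8 were called higher, with summed TPM of 1622 to 3432 at P60 and 495 to 651 at P7. Of microglial markers 5 of 10 were higher, and of mature astrocyte markers 7 of 15 were higher and 3 lower. Endothelial and leptomeningeal fibroblast markers went the other way, with 6 of 10 and 9 of 10 lower, and 1 oligodendrocyte marker was lower. Of all genes 33.3% were called lower at P60. With the neuronal and oligodendrocyte lists as covariates the Gjb6 difference was 0.89 ± 0.39 (limma adjusted p = 0.0943). The part of these cells in the Gjb6 difference was not tested further.

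The low level of Gjb6 at 3m was tested against the ages on both sides. Gjb6 was 678 ± 239 TPM at 3m (SD, n = 5) and 1240.2 ± 29.6 TPM at P60 (SD, n = 3), and it fell by 0.93 ± 0.28 on the log2 scale (SE; limma adjusted p = 0.0300), beside 10.2% of genes called and 1.93% lower at 3m. The median of all genes was 0.12 in this comparison. The call was lost in 6 of 8 fits that left out 1 library, with adjusted p between 0.00847 and 0.0941; those libraries were each of the 3 of P60 and replicates 1, 2 and 4 of 3m. It was also lost with the replicate block (adjusted p = 0.0533) and once each library's count of genes at 0 was a covariate, where the difference was -0.13 ± 0.28 (adjusted p = 0.857). Between 3m and 6m, which share a range of genes at 0, Gjb6 rose again. It was 1348 ± 240 TPM at 6m and 678 ± 239 TPM at 3m (SD, n = 5 each), with a log2 fold change of 1.03 ± 0.24 (SE; limma adjusted p = 0.0102), beside 9.32% of genes called and 2.07% higher at 6m. In a fit of these ages alone the adjusted p was 0.0708.

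At 18m Gjb6 was 1286 ± 380 TPM (SD, n = 4). Against 3m it was higher at 18m by 0.92 ± 0.25 on the log2 scale (SE; limma adjusted p = 0.00597), beside 4.16% of genes called higher, and the libraries overlapped. The sign turned with the count of genes at 0 as a covariate (-0.54 ± 0.39, limma adjusted p = 0.515). It also turned with a term for the lowest range of genes at 0 (-0.60 ± 0.42, limma adjusted p = 0.482). Both fits rest largely on the 12m libraries, of which replicate 3 was low in Gjb6, so they cannot separate age from range. Against P7, with no overlap and within one range of genes at 0, Gjb6 was 1.48 ± 0.27 higher at 18m (limma adjusted p = 0.000218), beside 29.6% of genes called, 4.67% higher, and a median of all genes of -0.20. Against P60 its log2 fold change at 18m was -0.00 ± 0.29 (limma adjusted p = 0.995), beside 13.8% of genes called, so the oldest libraries differed from P60 by less than their spread. Gja1 differed by -0.50 ± 0.18 (adjusted p = 0.0678) in the same comparison.

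Gjb2, the third member, stayed between 21.8 and 57.6 TPM. Its TPM per library were 57.6, 44.9, 31.1 and 35.8 at P7. They were 46.0, 52.1, 48.1 and 34.1 at P14. These ages overlapped throughout. The values were 27.7, 32.7 and 29.9 at P21, 39.1, 27.3 and 34.2 at P28, and 26.4, 35.6 and 26.9 at P60. From P21 to P60 no library reached 40 TPM. At 3m the values were 39.3, 33.6, 56.1, 41.9 and 53.4. At 6m they were 42.0, 39.1, 28.5, 57.4 and 34.4. High and low libraries occurred within both ages. The values were 31.9, 21.8 and 35.7 at 12m and 22.8, 30.7, 34.4 and 33.9 at 18m. All of these lay below 36 TPM, within reach of the lowest libraries of 3m and 6m.

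By mean TPM Gjb2 ranked P60 (29.6 ± 5.17), 12m (29.8 ± 7.20), P21 (30.1 ± 2.49), 18m (30.4 ± 5.36), P28 (33.5 ± 5.94), 6m (40.3 ± 10.8), P7 (42.3 ± 11.7), 3m (44.9 ± 9.57) and P14 (45.1 ± 7.75), with SD over 3 to 5 libraries. None of its 8 pairs of neighbours was called by limma. Of the 36 age pairs 2 were called, both with the later age lower, beside a median of 11.2% of genes called per pair. These were P60 vs P14 (-0.59 ± 0.22, adjusted p = 0.0485), beside 25.2% of genes called and 12.8% lower, and 18m vs 3m (-0.54 ± 0.19, adjusted p = 0.0284), both with overlap. The P60 vs P14 call lies close to the threshold and was not refitted with other settings. The leptomeningeal fibroblast markers had a mean log2(TPM + 1) of 4.30 at P60 and 5.08 at P14. P60 vs P7 gave -0.48 ± 0.22 (adjusted p = 0.0669), 18m vs P7 gave -0.44 ± 0.20 (adjusted p = 0.0939) and 3m vs P60 gave 0.57 ± 0.21 (adjusted p = 0.0773), none of them called.

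The 18m vs 3m call of Gjb2 was sensitive. It was lost without replicate 3 of 3m (-0.45, adjusted p = 0.0757), without replicate 5 of 3m (-0.47, adjusted p = 0.0698), without replicate 1 of 18m (-0.41, adjusted p = 0.143) and after rescaling (-0.29, adjusted p = 0.211), all by limma. The leptomeningeal fibroblast markers are given beside it. Their summed TPM were 401 to 544 at 18m and 398 to 978 at 3m, with 3 of 10 called lower at 18m beside 33.4% of all genes, which is near the background. They were 294 to 358 at P60 and 678 to 1174 at P7, with 9 of 10 called lower at P60 beside 33.3% of all genes. None of the 10 was at 0 throughout any age. With this list as a covariate the difference of Gjb2 was -0.14 ± 0.14 for 18m vs 3m (limma adjusted p = 0.479) and 0.41 ± 0.20 for P60 vs P7 (limma adjusted p = 0.151), with the opposite sign to the fit without it.

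**Figure D2:**
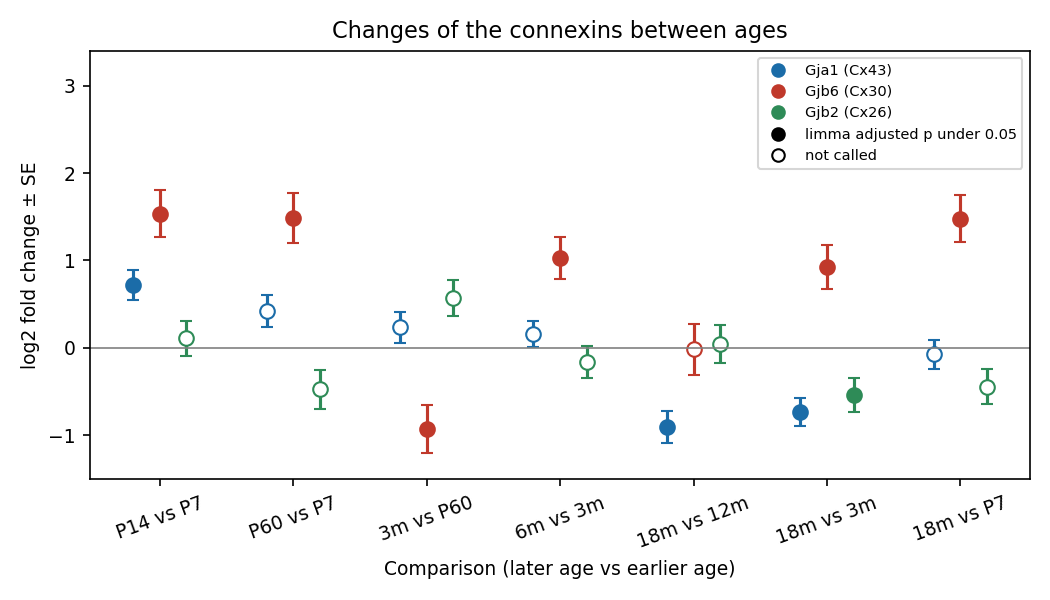
Limma log2 fold change (later age minus earlier age, on log2(TPM + 1)) with SE for Gja1, Gjb6 and Gjb2 in 7 comparisons of ages. Filled points have an adjusted p under 0.05. Gjb6 is about 1.5 higher at P14, P60 and 18m than at P7, while Gja1 is 0.90 lower at 18m than at 12m.

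The balance between the 2 main connexins was read within each library as the ratio of Gjb6 to Gja1 TPM. The ratio was 0.301 ± 0.0295 at P7, 0.533 ± 0.0786 at P14, 0.598 ± 0.141 at P21, 0.508 ± 0.0508 at P28, 0.628 ± 0.0692 at P60, 0.289 ± 0.0886 at 3m, 0.542 ± 0.216 at 6m, 0.531 ± 0.255 at 12m and 0.948 ± 0.421 at 18m (SD, n = 3 to 5). At 18m the libraries had ratios of 1.49, 1.07, 0.552 and 0.686, and its replicates 1 and 2 were the only libraries of the 34 with more Gjb6 than Gja1. Of the summed TPM of the 3 members, Gjb6 made up 22.6% ± 1.56 at P7, 38.1% ± 2.58 at P60, 21.8% ± 5.03 at 3m and 46.4% ± 10.9 at 18m (SD). Gja1 made up 75.3% ± 2.12 at P7, 60.9% ± 2.51 at P60, 76.7% ± 5.24 at 3m and 52.5% ± 10.6 at 18m.

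Ratios were tested on the log2 scale with an exact two-sided permutation test over libraries, with p adjusted over 9 tests. Gjb6 to Gja1 was higher by 1.06 in P60 vs P7 (exact p = 0.0286, adjusted p = 0.0429), by 1.66 in 18m vs 3m (exact p = 0.00794, adjusted p = 0.0357) and by 1.55 in 18m vs P7 (exact p = 0.0286, adjusted p = 0.0429). In all 3 the libraries did not overlap, and each p was the smallest that the number of libraries allows. Gjb2 to Gjb6 was lower by the same test in P60 vs P7 (-1.96, exact p = 0.0286, adjusted p = 0.0429), in 18m vs 3m (-1.46, exact p = 0.00794, adjusted p = 0.0357) and in 18m vs P7 (-1.92, exact p = 0.0286, adjusted p = 0.0429). Gjb2 to Gja1 differed by -0.90 in P60 vs P7 (exact p = 0.0571, adjusted p = 0.0735), by 0.20 in 18m vs 3m (exact p = 0.437, adjusted p = 0.437) and by -0.37 in 18m vs P7 (exact p = 0.171, adjusted p = 0.193), and was not called. A ratio within a library is not altered by a common rescaling of its TPM, but 18m vs 3m still lies across ranges of genes at 0.

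**Figure D3:**
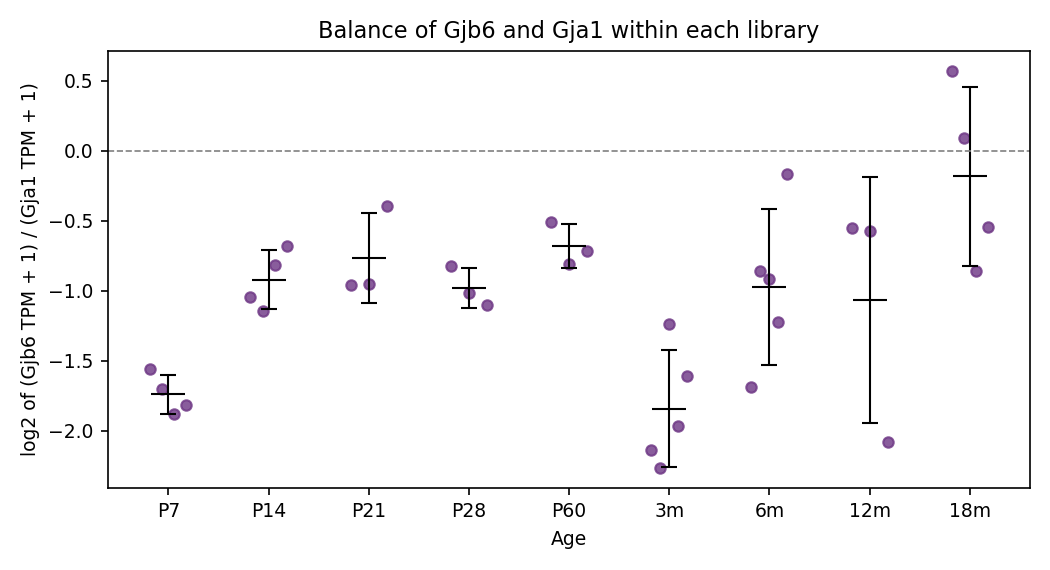
Log2 ratio of Gjb6 to Gja1, each as TPM + 1, in every library by age. Points are libraries, black bars the mean with SD, and the dashed line marks equal levels. The 18m libraries lie above all P7 and 3m libraries, and 2 of the 4 lie above the dashed line.

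The members did not follow each other closely over the 34 libraries. Pearson r of log2(TPM + 1) was 0.39 between Gja1 and Gjb6, 0.11 between Gja1 and Gjb2 and -0.38 between Gjb6 and Gjb2. With each age's mean taken away, these were 0.07, 0.16 and -0.16. These correlations, and those that follow, are descriptions over libraries that share their ages and their scaling to a common sum.

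Genes with predicted or clone names, such as Gm and Rik symbols, were left out of the search for likeness. The genes most like each member were sought among the other 10238 tested genes that averaged 5 TPM or more. For Gja1 they were Gpm6a, a membrane glycoprotein, at r = 0.93, Add3, an adducin of the membrane skeleton, at 0.92, Slc39a12, a zinc transporter, at 0.91, Abr, a regulator of small GTPases, at 0.91 and Acad11, an acyl-CoA dehydrogenase, at 0.90. Within ages these 5 had r between 0.72 and 0.89. As a description of a gene chosen for its likeness, Gpm6a had 1094 ± 59.9 TPM at P7, 2023 ± 168 TPM at P28 and 1063 ± 164 TPM at 18m (SD, n = 4, 3 and 4). The mean of the 15 mature astrocyte markers had r = 0.87 with Gja1 (0.70 within ages).

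For Gjb6 they were Smim3, a small membrane protein, at r = 0.93, Timp4, an inhibitor of metalloproteinases, at 0.89, Glul, the glutamine synthetase of astrocytes, at 0.89, Kcnk1, a two-pore-domain potassium channel, at 0.88 and Prodh, the proline dehydrogenase of mitochondria, at 0.88. Within ages these 5 had r between 0.65 and 0.87. These genes were chosen for their likeness to Gjb6, so their levels are a description. Smim3 had 72.5 ± 21.7 TPM at 3m (SD, n = 5) and 96.0 ± 8.57 TPM at P60 (SD, n = 3). Glul was 1761 ± 329 TPM at 3m (SD, n = 5) and 2614 ± 156 TPM at P60 (SD, n = 3). The mature astrocyte markers, which hold Glul, had r = 0.48 with Gjb6 (0.04 within ages).

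For Gjb2 they were Slc13a3, a dicarboxylate transporter, at r = 0.87, Fmod, the matrix proteoglycan fibromodulin, at 0.85, Rab3il1, a Rab3A-interacting protein, at 0.85, Kcnj13, a potassium channel known from choroid plexus, at 0.85 and Ogn, the matrix proteoglycan osteoglycin, at 0.84. Within ages these 5 had r between 0.78 and 0.92. The mean of the 10 leptomeningeal fibroblast markers, which holds none of these 5, had r = 0.80 with Gjb2 (0.79 within ages), against -0.33 with Gja1 and -0.63 with Gjb6. Ogn was 19.0 ± 3.28 TPM at P60 (SD, n = 3) and 52.9 ± 22.3 TPM at P7 (SD, n = 4).

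**Figure D4:**
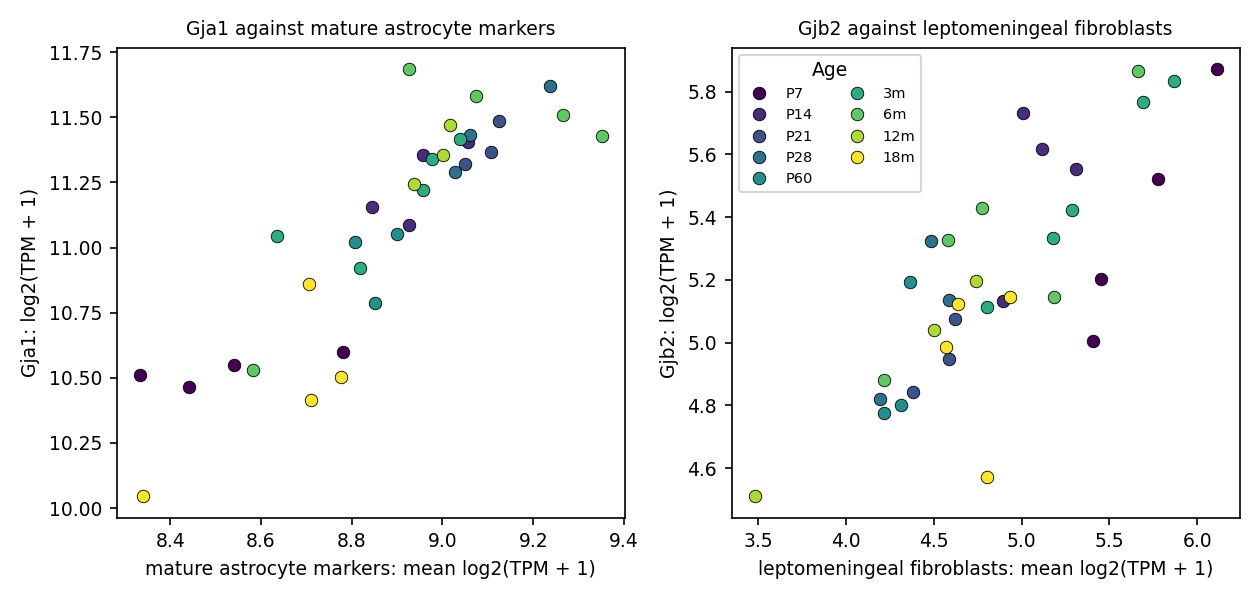
Left, Gja1 against the mean of 15 mature astrocyte markers; right, Gjb2 against the mean of 10 leptomeningeal fibroblast markers, all as log2(TPM + 1). Each point is 1 of 34 libraries, coloured by age. Libraries with more of the marker list have more of the connexin in both panels (r = 0.87 and r = 0.80).

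Genes with values that lie near each connexin were described in the same way, and not all of them are given here. Serinc1, the serine incorporator on the far side of Hsf2 from Gja1, averaged 379.9 TPM and had r = 0.84 with Gja1. Hsf2, the nearest gene on that side, averaged 10.1 TPM and had r = 0.67. Pkib, beyond Serinc1, had r = 0.16. On the other side of Gja1, Msl3l2, Tbc1d32 and Man1a had r = 0.57, 0.36 and 0.45 with it. On chromosome 14, Cryl1, the crystallin lambda gene next to Gjb6, averaged 19.7 TPM and had r = -0.38 with Gjb6. Ift88 and Il17d, beyond Cryl1, had r = -0.38 and -0.62 with Gjb6. Gja3, next to Gjb2, averaged 0.166 TPM. Beside the rise of Gjb6 at P14, Cryl1 averaged 18.9 TPM at P14 and 23.3 TPM at P7, and Gjb2 averaged 45.1 TPM at P14 and 42.3 TPM at P7.

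Of the other 17 connexin genes, Gja4 averaged 35.0 to 74.2 TPM and Gjc1 31.6 to 68.0 TPM by age, against 29.6 to 45.1 TPM for Gjb2, and the rest stayed below Gjb2. Among these, 11 averaged under 1 TPM at every age and did not pass the filter, and 6 of the 17 were tested. In P60 vs P7, 2 of the 6 rose and 2 fell, beside 19.5% and 33.3% of all genes, and the counts were the same after rescaling. The oligodendrocyte connexin Gjb1 (Cx32) had 5.18 ± 3.33 TPM at P60 and 0.991 ± 0.334 TPM at P7 (SD, n = 3 and 4; limma adjusted p = 0.0186). Gjc3 (Cx29), also of the oligodendrocyte lineage, had 11.4 ± 3.33 TPM at P60 and 2.40 ± 0.454 TPM at P7 (limma adjusted p = 0.00111). Both rose beside the oligodendrocyte markers given above, whose part in it was not tested. Gjc1 (Cx45), a connexin of vascular and neuronal cells, had 31.6 ± 12.7 TPM at P60 and 68.0 ± 7.56 TPM at P7 (limma adjusted p = 0.00751). Gja5 (Cx40), a connexin of arterial endothelium, had 0.458 ± 0.0516 TPM at P60 and 1.52 ± 0.628 TPM at P7 (limma adjusted p = 0.0215). Of the endothelial markers 6 of 10 were called lower at P60 too.

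In 18m vs P7, 1 of the 6 was called beside 29.6% of all genes, Gjc3, with 9.70 ± 6.15 TPM at 18m and 2.40 ± 0.454 TPM at P7 (SD, n = 4 each; limma adjusted p = 0.00874). Limma called 0 of 6 in 18m vs 3m, beside 37.5% of all genes, and 0 of 6 in 3m vs P60, beside 10.2%. After rescaling it called 2 of 6 higher in 18m vs 3m, Gja4 (adjusted p = 0.0422) and Gjc3 (adjusted p = 0.0350), and 1 lower in 3m vs P60, Gjc3 (adjusted p = 0.0252). Gja4 (Cx37), a connexin of vascular endothelium, had 73.8 ± 20.9 TPM at 18m and 50.4 ± 6.73 TPM at 3m, above the level of Gjb2.

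**Figure D5:**
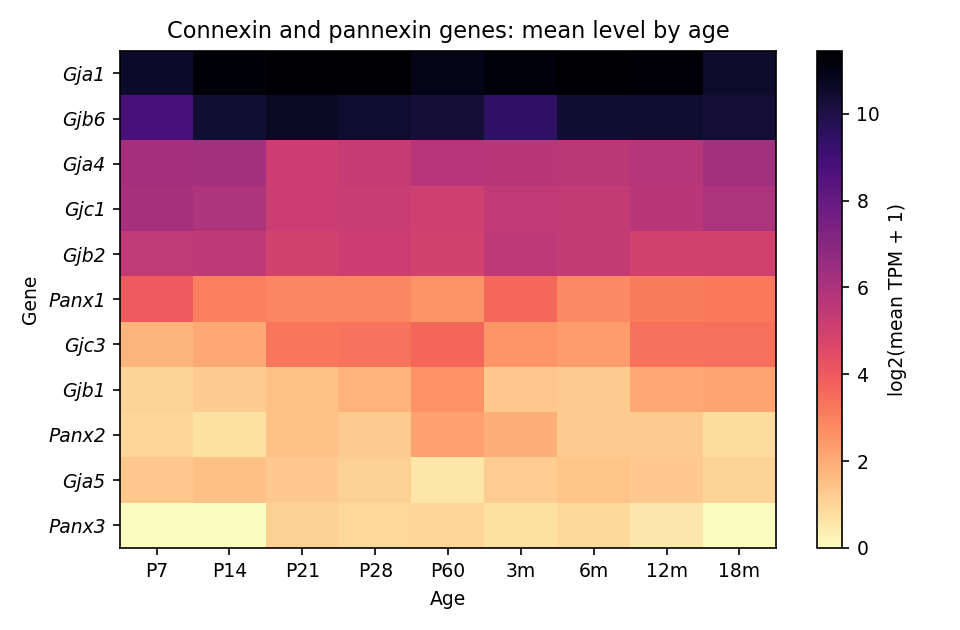
Mean level of 8 connexin and 3 pannexin genes at each age, as log2(mean TPM + 1), ordered by their mean over ages. Gja1 and Gjb6 stand apart at the top, and Gja4, Gjc1 and Gjb2 follow.

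Pannexins form channels in single membranes that release ATP and, unlike connexins, rarely pair between cells. Panx1, the widely expressed member, had 5.04 ± 0.364 TPM at P60 and 14.3 ± 2.17 TPM at P7 (SD, n = 3 and 4) and fell by 1.33 ± 0.26 on the log2 scale (SE; limma adjusted p = 0.000278). It was higher at 3m than at P60, with 11.2 ± 5.17 TPM at 3m and 5.04 ± 0.364 TPM at P60 (limma adjusted p = 0.0149). In 18m vs P7 it fell by 0.80 ± 0.24 (limma adjusted p = 0.0137), a call that rescaling ended (adjusted p = 0.0504). Panx2, known from neurons and oligodendrocytes, had 3.64 ± 2.15 TPM at P60 and 0.960 ± 0.194 TPM at P7 (limma adjusted p = 0.00611). At 18m it had 0.730 ± 0.524 TPM, against 2.79 ± 0.933 TPM at 3m (limma adjusted p = 0.00370). Panx3 was listed at 0 in the 14 libraries with the most genes at 0, which are all of P7, P14 and 18m and replicates 1 and 2 of 12m, and was above 0 in all others, with 1.24 TPM in replicate 3 of 12m. Within 12m Panx3 thus went with the range, though this rests on replicate 3 alone. Between the other ages, age and range cannot be told apart for Panx3. Panx2 was also lowest at the ages wholly in the range with the most genes at 0. It had 0.612 TPM at P14, 0.730 TPM at 18m and 0.960 TPM at P7. Both comparisons given for Panx2 lie across ranges, so the same limit holds.

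Of 20 genes known as partners or regulators of Cx43, including scaffold, kinase and turnover proteins, 1 was called higher and 9 lower in P60 vs P7, beside 19.5% and 33.3% of all genes. Their median log2 fold change was -0.39, beside -0.15 over all genes. After rescaling, 4 rose and 6 fell, and the median was -0.22. Hepacam, the adhesion protein GlialCAM, rose, with 240.0 ± 4.06 TPM at P60 and 172 ± 19.3 TPM at P7 (SD, n = 3 and 4; limma adjusted p = 0.0362). Its partner Mlc1 fell, with 750.4 ± 38.8 TPM at P60 and 962 ± 81.7 TPM at P7 (limma adjusted p = 0.0164), but not after rescaling (adjusted p = 0.207). The 3 with the smallest p all fell: Ctnnb1, beta-catenin, by 0.74 (adjusted p = 0.000541), Nedd4, a ubiquitin ligase, by 0.77 (adjusted p = 0.000645) and Cttn, the actin-binding cortactin, by 0.64 (adjusted p = 0.000666), all by limma on the log2 scale. Tjp1, the ZO-1 scaffold that binds the Cx43 tail, had 22.4 ± 2.54 TPM at P60 and 26.7 ± 1.25 TPM at P7 (limma adjusted p = 0.162).

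In 18m vs 3m, 13 of these 20 genes fell and 0 rose, beside 33.4% of all genes lower, with a median of -0.44 beside -0.24 over all genes. In the same comparison 8 of 12 neuronal, 4 of 10 microglial and 7 of 15 mature astrocyte markers were called lower, the microglial share being near that of all genes. Of oligodendrocyte precursor markers 3 of 6 were called higher, and 5 of 6 after rescaling, beside 4.16% of all genes higher without it. Of the mature astrocyte markers 2 were higher. The comparison of 18m with 3m lies across the ranges of genes at 0. With the count of such genes as a covariate 297 genes of the whole table were called, against 5476 without it. That covariate rests largely on the 12m libraries. Of the 20 partners and regulators, 8 fell and 0 rose after rescaling. The changes of single genes that follow are without rescaling unless stated. Ubqln4, a ubiquilin of protein turnover, fell by 0.84 on the log2 scale (adjusted p = 0.000253), Ctnnb1 by 0.71 (adjusted p = 0.000360) and Nedd4 by 0.73 (adjusted p = 0.000438), all by limma. Mlc1 had 684 ± 129 TPM at 18m and 965 ± 78.3 TPM at 3m (SD, n = 4 and 5; limma adjusted p = 0.000661). Tjp1 had 21.5 ± 2.18 TPM at 18m and 32.8 ± 2.48 TPM at 3m (limma adjusted p = 0.00121). Hepacam had 186 ± 66.7 TPM at 18m and 241 ± 35.4 TPM at 3m (limma adjusted p = 0.0432), and its call was lost after rescaling (adjusted p = 0.385). In 18m vs P7, 11 of the 20 fell and 0 rose, beside 24.9% of all genes lower. In 3m vs P60, 7 rose and 0 fell, beside 8.26% of all genes higher. After rescaling these were 5 and 4. Both 18m vs 3m and 3m vs P60 use the 3m libraries.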

How the data were processed

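Astrocyte RNA of 34 libraries was analysed from the deposited table of TPM, which the authors made. Per the submitters' processing notes, Trim Galore 0.6.4, STAR 2.7.1a, RSEM 1.2.28, DESeq2 1.36.0 and build mm10 were used, and their roles are not given in the sources used here. Per the labels' protocols, cDNA was made with a low-input kit. Each library sums to 1000000 TPM, and depth is unknown. The log2(TPM + 1) scale understates changes of low genes. A gene was tested if 3 or more libraries reached 1 TPM, and these 14590 genes were fitted with limma 3.58.1 (R 4.3.3, statmod 1.5.0; trend and robust settings), and BH adjustment ran over all of them. Connexin ratios were compared with exact permutation tests in Python 3.11.15, and both scripts were tested on simulated data. The members, the 14 gene lists and the tests were chosen with earlier results of these data known, so none is independent support.

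Named genes were the members, other connexins and the pannexins (some connexins are counted but not reported by name here), of the partners Hepacam, Mlc1, Tjp1 and the 3 of smallest p in P60 vs P7 and in 18m vs 3m, the 5 genes of highest Pearson r with each member, and neighbouring genes. Alternatives were rescaling by medians of ratios, a pseudocount of 0.1, filters of 0 and 5 TPM, marker lists or the number of genes at 0 as covariates, fits of 2 ages, a replicate block and leaving out each library. A term for the lowest range of genes at 0 and fits within a range were added after seeing the data. Replicate numbers did not pair libraries: over 119 pairs of libraries with the same number, residuals correlated with a mean r of 0.0023 (-0.44 to 0.46), and 26 pairs exceeded 0.1. Sequences are RefSeq promoters of GRCm38.p6.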

Additional observations from a re-analysis of the deposited data

Results flagged for a closer look

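Of 30 groups of 4 or 5 libraries screened for a library that stands apart by Dixon's test, 2 held one; chance gives about 1 in 20 groups. Gjb6 in replicate 3 of 3m was 1099.96 TPM, against 540.2 to 637 TPM in the other 4 libraries of that age. The ratio of Gjb2 to Gjb6 TPM in replicate 4 of P14 was 0.0208, against 0.0390 to 0.0424 in the other 3 libraries. That library had the highest Gjb6 and the lowest Gjb2 of its age.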

How the results depend on the processing

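All values are log2 differences, later minus earlier age, with limma adjusted p. For the 3 connexins in P60 vs P7, 18m vs 3m and 18m vs P7, 145 of 168 alternatives kept the direction and the side of the threshold. The other age pairs kept both in 433 of 498 and the ratios in 60 of 81. TPM carry no depth, so the precision of low genes is unknown, and 3 to 5 libraries per age limit every test. Where no cause is given below, the cause was not tested.

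Rescaling gave 0.60 for Gja1 in P60 vs P7 (limma adjusted p = 0.00349), -0.29 for Gjb2 in 18m vs 3m (limma adjusted p = 0.211) and 0.19 for Gja1 in 18m vs P7. It also gave 0.079 for Gjb6 in 18m vs P60, 0.23 for Gjb6 in 18m vs 12m, -0.073 for Gja1 in P28 vs P21 and -0.059 for Gja1 in 12m vs 6m, all with the sign turned, and Gjb2 lost its F test (adjusted p = 0.0513). The replicate block, which the numbers do not justify, gave 0.45 for Gja1 in P60 vs P7 (limma adjusted p = 0.0100) and -0.10 for Gja1 in 12m vs 6m. Fits of 2 ages alone gave Gja1 in P60 vs P7 the same 0.42 (limma adjusted p = 0.00131).

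The neuronal and oligodendrocyte covariates gave 0.89 for Gjb6 in P60 vs P7 (limma adjusted p = 0.0943). They turned the sign of uncalled values in 18m vs P60 (Gjb6 0.44, Gjb2 -0.17), 18m vs 12m (Gjb6 0.23, Gjb2 -0.069), P21 vs P14 (Gjb6 -0.0017), P28 vs P21 (Gja1 -0.011) and 12m vs 6m (Gja1 -0.070). The leptomeningeal covariate gave Gjb2 0.41 in P60 vs P7, -0.14 in 18m vs 3m (limma adjusted p = 0.479), 0.16 in 18m vs P7, -0.25 in 18m vs P60, -0.11 in 3m vs P60, 0.14 in 6m vs 3m and -0.27 in 18m vs 12m. With it Gjb6 was 0.060 in 18m vs P60 and 0.056 in 18m vs 12m, and Gja1 was -0.082 in 12m vs 6m. The astrocyte covariate turned values near 0 in 18m vs P60 (Gjb6 0.016, Gjb2 -0.0060), 18m vs 12m (Gjb6 0.016, Gjb2 -0.021) and P21 vs P14 (Gja1 -0.011).

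With the count of genes at 0 as a covariate, Gjb2 was -0.79 in P60 vs P7 (limma adjusted p = 0.0273), and in 18m vs 3m Gja1 was -0.60 (limma adjusted p = 0.359), Gjb6 -0.54 (limma adjusted p = 0.515) and Gjb2 0.0044 (limma adjusted p = 0.997). The term for the lowest range, added after seeing the data, gave -0.73 (limma adjusted p = 0.255), -0.60 (limma adjusted p = 0.482) and -0.12 (limma adjusted p = 0.912) in 18m vs 3m. All genes called in P60 vs P7 numbered 7697, against 3488 with neuronal and oligodendrocyte and 2759 with leptomeningeal covariates. Those called in 18m vs 3m numbered 5476, against 3584 with the astrocyte covariate, 297 with the count of genes at 0 and 464 with the range term. Those called in 18m vs P7 numbered 4316, against 2247 with the leptomeningeal covariate. Within the libraries with the most genes at 0, Gjb6 was 1.48 higher at 18m than at P7 (limma adjusted p = 0.000108).

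Leaving out 1 library gave Gjb2 -0.61 to -0.32 in P60 vs P7 (called without replicate 3 of P7 or replicate 2 of P60), -0.63 to -0.41 in 18m vs 3m and -0.57 to -0.29 in 18m vs P7 (called without replicate 3 of P7, limma adjusted p = 0.0495). Gja1 in 18m vs P7 was -0.21 to 0.062, with the higher value without replicate 1 of 18m. Uncalled values whose range crossed 0 were those of 18m vs P60 (Gjb6 -0.12 to 0.23, Gjb2 -0.041 to 0.17), P14 vs P7 (Gjb2 -0.022 to 0.27), P28 vs P21 (Gja1 -0.030 to 0.14, Gjb6 -0.28 to 0.076), 12m vs 6m (Gja1 -0.19 to 0.095, Gjb6 -0.39 to 0.42) and 18m vs 12m (Gjb6 -0.52 to 0.29, Gjb2 -0.16 to 0.18). The ratio of Gjb6 to Gja1 was 0.97 to 1.13 in P60 vs P7 and 1.30 to 1.78 in 18m vs P7. That of Gjb2 to Gjb6 was -2.11 to -1.85 and -2.22 to -1.68. In P60 vs P7 each of these 2 ratio calls held in 0 of 7 tests. There the exact p was 0.0667 to 0.1, the least that so few libraries allow. In 18m vs P7, where an exact p of 0.0286 was still possible, they held in 5 of 8 and 4 of 8. The exact p there reached 0.0571. In 18m vs 3m each held in 9 of 9. Without replicate 1 of 18m, 3471 genes were called in 18m vs 3m.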
